A study of Mus musculus with 8 samples.

Results

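The markers of the VIP and CCK classes of cortical inhibitory neurons were followed as 10 genes, chosen by their symbols: Vip, Calb2, Cck, Htr3a, Prox1, Adarb2, Npas1, Crispld2, Cnr1 and Tac2. They are 10 of the 55341 gene symbols counted in each library. Counts were found for 9 of them, and these 9 were among the 17355 genes with enough counts to be tested. The tenth, Crispld2, was listed at 0 in all 8 libraries.

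VIP and CCK neurons are inhibitory neurons that arise in the caudal ganglionic eminence of the embryo. VIP neurons act largely on other inhibitory neurons, above all those that express somatostatin, and so release pyramidal cells from inhibition. CCK basket cells contact the cell bodies of pyramidal cells and carry the cannabinoid receptor CB1 on their terminals, through which their transmitter release is held back. Both classes belong to the wider group of neurons that express the ionotropic serotonin receptor, and in the adult cortex the lineage is followed by Prox1 and Adarb2.

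The libraries hold nuclear RNA of GABAergic nuclei sorted from the cortex of single juvenile mice. All mice of both groups carried a reporter that turns on in GABAergic neurons after Cre recombination and labels the nucleus; the Cre driver, the strain and the age in days are not given in the sources used here. All mice were also hypothyroid, since their mothers were given propylthiouracil (PTU), a blocker of thyroid hormone synthesis, during gestation. The PTU group (mice 9 to 12, n = 4) is not described as given a hormone, and the PTU+TH group (mice 13 to 16, n = 4) got thyroid hormone into the peritoneum 24 h before the brain was taken. There is no group of mice with normal thyroid function here, so the comparison concerns the day after the hormone is given.

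Library totals lay between 21762810 and 29084071 counts and were not told apart between the groups (exact permutation test over 70 arrangements, two-sided, p = 1). The hormone target Hr, which encodes a corepressor, was at 1.80 ± 0.53 CPM (counts scaled to the size of each library) without the hormone and at 26.6 ± 1.62 CPM after it (mean ± SD of 4 mice, as in all such pairs below), and 3 of the 3 genes used to check the response (Hr, Klf9 and Dbp) rose. Gad1, which makes GABA, was abundant in every library, at 389 to 546 CPM. Markers of other cells were present at lower summed levels. The 8 excitatory neuron markers summed to between 50.6 and 161 CPM per library, and the 5 endothelial markers to between 18.4 and 140 CPM, the highest in PTU mouse 10. No marker of glia was called by edgeR, DESeq2 or limma voom. The 5 oligodendrocyte markers had a median log2 fold change of 0.68, with 4 of 5 above 0 and 1 higher at an unadjusted p under 0.05 in edgeR (summed 89.3 to 107 CPM in PTU, 84.0 to 173 CPM in PTU+TH). The 4 tested microglial markers had a median of 0.52, with 4 of 4 above 0 and 1 higher at an unadjusted p under 0.05 in edgeR (49.7 to 68.3 and 58.2 to 73.2 CPM). Their part in the results was not tested. Y-linked genes had 0 counts in PTU+TH mice 15 and 16 and were present in the other 6 libraries. The labels name no batch. Nothing states that mice came from separate litters, so p-values measure the spread between these mice.

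The zeros in the files are those of a count over whole gene bodies, introns included, that leaves out reads in a stretch shared by several genes, although the labels do not state the rule. Of 796 protein-coding genes that lie wholly inside an intron of another gene, 796 were listed at 0. This sets what can be said of 2 of the markers. Crispld2, which encodes a secreted protein with cysteine-rich and LCCL domains, has 0 unshared bases among its 60356, because the gene model Gm20388 spans all of it. Its 0 therefore says nothing about its expression. Htr3a (chromosome 9, 48899213 to 48911099, GRCm38) shares 6770 of its 11887 bases with the antisense gene Gm32335. Under the counting rule above, its counts come from the remaining 5117 bases at its 5′ end. These hold 523 of its 2083 exon bases, so most of its exon sequence is not counted. Gm32335 itself had 0 to 5 counts per library. For the other 8 markers at least 97.4% of the gene body is unshared.

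The region before the start site was read for 8 of the 10 markers from the RefSeq promoter table (GRCm38.p6); Calb2 and Htr3a had no entry. The 250 bases before each of 11 start sites were searched on both strands for AGGTCA, the half-site bound by thyroid hormone and related nuclear receptors, for the direct repeat of that half-site with a spacing of 4, and for TGACG, the core of the cyclic AMP response element. Vip and Cck are shown because they were the 2 markers with the TGACG core, and Cnr1 because it was the 1 marker with the AGGTCA half-site; capitals mark the match.
Vip, chr10:5638968-5639217, plus strand: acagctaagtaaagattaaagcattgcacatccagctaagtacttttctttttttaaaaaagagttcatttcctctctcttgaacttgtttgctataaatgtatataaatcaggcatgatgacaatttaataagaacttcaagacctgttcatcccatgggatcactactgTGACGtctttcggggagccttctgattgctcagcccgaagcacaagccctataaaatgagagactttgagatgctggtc
Cck, chr9:121495695-121495944, minus strand: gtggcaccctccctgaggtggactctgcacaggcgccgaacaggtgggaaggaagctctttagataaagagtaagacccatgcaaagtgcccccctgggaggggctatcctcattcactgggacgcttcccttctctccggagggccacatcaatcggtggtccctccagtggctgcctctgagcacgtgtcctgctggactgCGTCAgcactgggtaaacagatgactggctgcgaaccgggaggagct
Cnr1, chr4:33924014-33924263, plus strand, first of 3 start sites: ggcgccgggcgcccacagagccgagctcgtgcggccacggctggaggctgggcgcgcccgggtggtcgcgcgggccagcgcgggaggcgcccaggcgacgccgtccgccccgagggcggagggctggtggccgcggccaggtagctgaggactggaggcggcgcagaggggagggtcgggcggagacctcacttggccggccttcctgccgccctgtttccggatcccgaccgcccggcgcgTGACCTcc
The match in Vip lies 79 to 75 bases before the start and that in Cck 47 to 43 bases before it, on the opposite strand. That in Cnr1 lies 8 to 3 bases before the start, also on the opposite strand. Of 32851 promoter windows of this length, 17.8% hold TGACG, 14.0% hold AGGTCA and 0.0152% hold the repeat, which no marker had. The matches are a description of these letters only.

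Levels of the 9 markers were compared per kb of unshared gene body, in CPM per kb over the 8 libraries. This scale mixes spliced and unspliced reads, and a gene rich in exon sequence can gain on it. Vip, the neuropeptide that gives its class the name, was highest, at 14.6 ± 2.78 CPM per kb (SD, n = 8). It stood above every other marker in each library. Npas1, a transcription factor of the bHLH-PAS family, followed at 8.97 ± 0.63 and Cnr1, the CB1 receptor, at 8.08 ± 1.60 CPM per kb. Npas1 was the higher of this pair in 7 of 8 libraries, with ranges that overlap. Cck (5.06 ± 1.97), Adarb2 (5.01 ± 1.07) and Tac2 (4.76 ± 1.01 CPM per kb) could not be placed in an order, as Cck exceeded Adarb2 in 3 of 8 libraries and Adarb2 exceeded Tac2 in 4 of 8. Prox1 (1.19 ± 0.15), Htr3a (1.12 ± 0.54) and Calb2 (0.706 ± 0.139 CPM per kb) formed the lower end, again with overlapping ranges. All libraries of Tac2 lay above all of Prox1. The mean level of Vip was 20.6 times that of Calb2 on this scale.

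**Figure D1:**
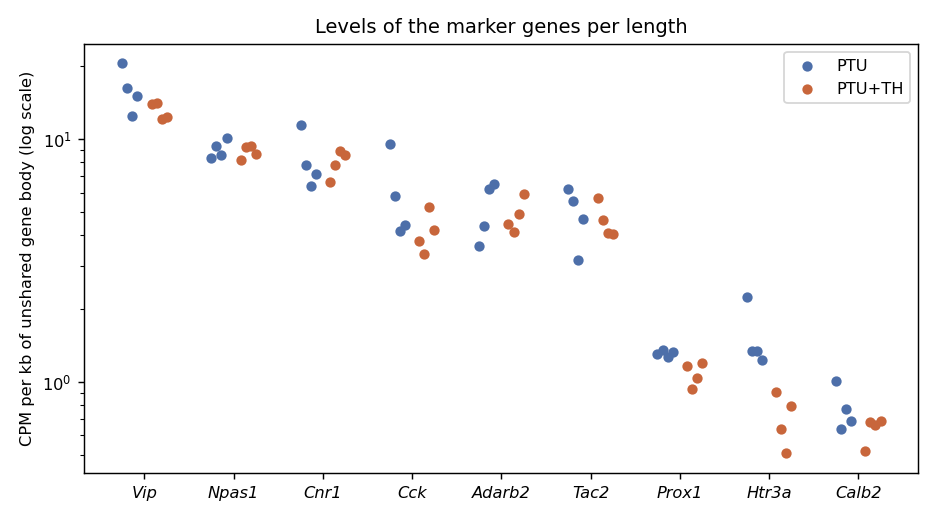
Level of each marker gene in CPM per kb of unshared gene body (log axis), with 1 point per library (blue PTU, orange PTU+TH, n = 4 each). Vip lies between 12.1 and 20.5 CPM per kb and Calb2 between 0.518 and 1.00 CPM per kb.

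A day after thyroid hormone, 1 of the 9 tested markers fell and none rose. The gene that fell was Htr3a, the serotonin receptor subunit, which was at 0.464 times its PTU level (95% interval 0.322 to 0.670). Its call held in 11 of 18 alternative settings, and in 3 of the 8 that left out a library. Of all 17355 genes tested, 2.12% were called at an adjusted p under 0.05 in edgeR, 0.634% as lower and 1.49% as higher. The log2 fold changes of the 9 markers ranged from -1.11 to -0.035, with a median of -0.28, against -0.0066 over all genes tested. All 9 were below 0, as were 51.4% of all genes tested. At an unadjusted p under 0.05, 3 were lower (Vip, Htr3a and Prox1), where 6.17% of all genes tested were. Without PTU mouse 9 the median of the markers was -0.15, and 7 of 9 were below 0. In 2 markers, Htr3a and Prox1, all 4 PTU+TH libraries lay under all 4 PTU libraries, where 4.03% of all genes tested did so, and 8.71% had groups apart in either direction. In bulk nuclei, fewer cells of a class and less RNA per cell cannot be told apart.

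**Figure D2:**
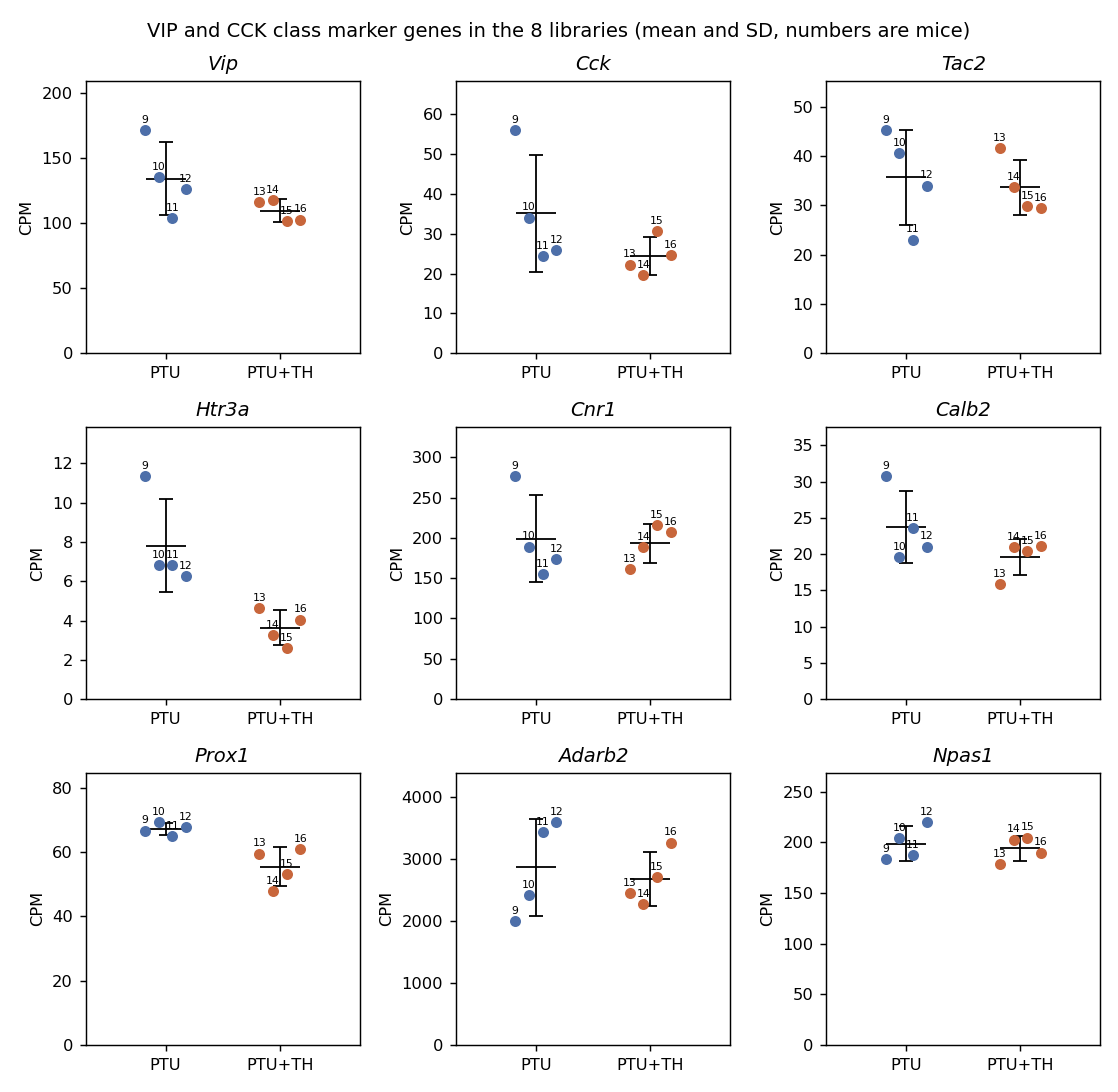
CPM of the 9 counted marker genes in each mouse (points, labelled by mouse number), with the mean and SD of each group (bars, n = 4). The groups are apart for Htr3a and Prox1 and overlap for the other 7, and PTU mouse 9 is the top PTU library for 6 of the 9.

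The peptide ligands come first. Vip encodes vasoactive intestinal peptide, which acts through cyclic AMP in its target cells (gene on chromosome 10, 5639218 to 5647617, GRCm38 as for all positions). Its PTU libraries stood at 172, 136, 104 and 126 CPM in mice 9 to 12, and its PTU+TH libraries at 117, 118, 102 and 103 CPM in mice 13 to 16. Mouse 11 of the PTU group lay inside the range of the PTU+TH group and the other 3 PTU mice lay above it. The fold was 0.817 (95% interval 0.670 to 0.994) and the gene was not called (edgeR adjusted p = 0.369, unadjusted p = 0.0446). Without PTU mouse 9 the log2 fold change went from -0.29 to -0.15.

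Cck encodes cholecystokinin, a peptide that cortical pyramidal cells make too (chromosome 9, 121489824 to 121495694). It was at 56.0, 34.0, 24.4 and 25.8 CPM without the hormone and at 22.3, 19.7, 30.7 and 24.7 CPM after it. PTU mouse 9 was far above the rest, mouse 10 was just above the PTU+TH range and mice 11 and 12 lay within it. The fold was 0.692 (95% interval 0.470 to 1.02; edgeR adjusted p = 0.425), and without PTU mouse 9 the log2 fold change went from -0.53 to -0.21. The summed excitatory markers were at 142, 122, 77.3 and 50.6 CPM in PTU mice 9 to 12 and 140, 73.1, 161 and 85.2 CPM in PTU+TH mice 13 to 16. The library with most of them was also highest in Cck in each group (mice 9 and 15). Mouse 10 was second in PTU and mouse 14 lowest in PTU+TH, both in these markers and in Cck. Mice 11 and 12 changed places between the orders, as did mice 13 and 16. The part of the excitatory markers in the level of Cck was not tested. With the level of these markers as a covariate, Cck was called lower (log2 fold change -0.60, edgeR adjusted p = 0.0311).

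Tac2 encodes neurokinin B, a tachykinin (chromosome 10, 127724478 to 127731768). Its values were 45.3, 40.6, 23.1 and 34.0 CPM without the hormone and 41.6, 33.8, 29.9 and 29.5 CPM after it. PTU mouse 11 was the lowest of all 8 and PTU mouse 9 the highest, and the PTU+TH libraries lay between them. The fold was 0.941 (95% interval 0.711 to 1.25; edgeR adjusted p = 0.926), and the log2 fold change of -0.087 became 0.052 without PTU mouse 9. Its sign changed under 3 of 18 alternative settings.

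Among the receptors, Htr3a encodes the subunit that forms the ionotropic serotonin receptor. It had 312, 181, 138 and 143 counts in PTU mice 9 to 12 and 110, 95, 57 and 85 in PTU+TH mice 13 to 16, that is 11.4, 6.81, 6.83 and 6.25 CPM against 4.64, 3.27, 2.59 and 4.05 CPM. The highest PTU+TH library lay under the lowest PTU library, and PTU mouse 9 stood above the other 3 of its group. The log2 fold change was -1.11 (SE 0.24, edgeR adjusted p = 0.0344). Without PTU mouse 9 it was -0.86, with an edgeR adjusted p of 0.0546. It was also not called without PTU mouse 10 or without any 1 of PTU+TH mice 14, 15 and 16 (edgeR adjusted p = 0.0578, 0.110, 0.116 and 0.0814), with library totals as the scale (0.067) and among the 6 mice with Y-linked counts (0.334). Its partner Htr3b, which joins it in mixed receptors, was too low to test, with 0 to 0.83 CPM.

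Cnr1 encodes CB1, the receptor by which endocannabinoids quiet CCK terminals (chromosome 4, 33924593 to 33948831). It stood at 277, 189, 155 and 174 CPM without the hormone and at 161, 189, 216 and 207 CPM after it. PTU mouse 9 was highest and mouse 11 lowest of all 8, so the PTU+TH group lay inside the PTU range. The fold was 0.972 (95% interval 0.758 to 1.25; edgeR adjusted p = 0.966). The log2 fold change of -0.040 became 0.17 without PTU mouse 9 and 0.040 without PTU+TH mouse 13. The intervals of the folds of Vip, Tac2, Cnr1, Calb2, Prox1, Adarb2 and Npas1 all lie between 0.657 and 1.31, and that of Cck reaches down to 0.470.

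Calb2 encodes calretinin, a calcium-binding protein found in a subset of VIP neurons (chromosome 8, 110137502 to 110168210). Its values were 30.8, 19.6, 23.6 and 21.0 CPM without the hormone and 15.9, 21.0, 20.4 and 21.1 CPM after it. PTU mouse 9 was above and PTU+TH mouse 13 below all others, and the other 6 lay close together. The fold was 0.826 (95% interval 0.657 to 1.04; edgeR adjusted p = 0.513), and without PTU mouse 9 the log2 fold change went from -0.28 to -0.12.

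Next are the regulators of the lineage, Prox1 (chromosome 1, 190118035 to 190170714), Npas1 (chromosome 7, 16455721 to 16477728) and Adarb2. Prox1, a homeobox factor needed for the placement and maturation of neurons from the caudal eminence, stood at 66.6, 69.4, 64.9 and 67.8 CPM without the hormone and at 59.5, 47.8, 53.1 and 61.0 CPM after it. The PTU+TH libraries were all under the PTU libraries, which had an SD of 1.91 CPM. The fold was 0.823 (95% interval 0.716 to 0.946), and the gene was not called over all genes tested (edgeR adjusted p = 0.179, unadjusted p = 0.00976). Its antisense neighbour Prox1os, picked after its values were seen because it shares 419 bases with it, was at 6.17 ± 1.20 CPM without the hormone and 4.48 ± 0.54 CPM after it (edgeR adjusted p = 0.328).

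Npas1 stood at 183, 204, 187 and 220 CPM without the hormone and at 179, 203, 205 and 190 CPM after it, with groups that overlap almost fully. Its fold was 0.976 (95% interval 0.844 to 1.13; edgeR adjusted p = 0.948), and the log2 fold change of -0.035 became 0.018 without PTU mouse 12 and 0.0055 without PTU+TH mouse 13. Adarb2, a relative of the RNA-editing enzymes that is itself without known editing activity, is a gene of 565882 bases on chromosome 13 (8202866 to 8768747). It was at 2002, 2416, 3430 and 3599 CPM without the hormone and at 2454, 2276, 2708 and 3262 CPM after it. PTU mice 9 and 10 were low and mice 11 and 12 high, and the PTU+TH group lay inside that range. The fold was 0.935 (95% interval 0.665 to 1.31; edgeR adjusted p = 0.934), and the log2 fold change of -0.097 became 0.0019 without PTU mouse 11 and 0.033 without PTU mouse 12.

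Added up, the 9 markers gave 3563 ± 691 CPM without the hormone and 3309 ± 439 CPM after it. Adarb2 makes up most of this sum, and without it the other 8 gave 702 ± 105 CPM without the hormone and 634 ± 24.4 CPM after it. Both differences were smaller than the SD of the PTU group. The difference in the sum of the 9, -254 CPM, was -16.8 CPM without PTU mouse 12 and -474 CPM without PTU mouse 9.

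**Figure D3:**
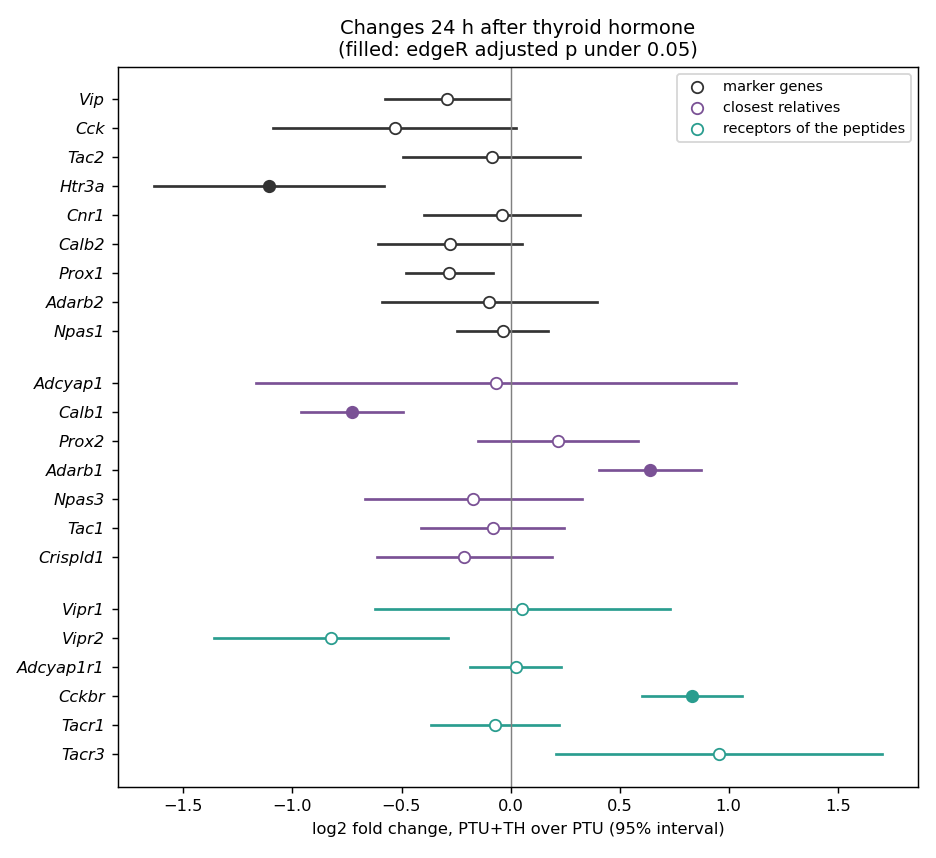
Log2 fold change of PTU+TH over PTU with its 95% interval (lines) for the 9 marker genes, their closest relatives and the tested receptors of the peptides (n = 4 mice per group). Filled points were called at an edgeR adjusted p under 0.05: Htr3a and Calb1 are lower, and Adarb1 and Cckbr are higher.

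The receptors of the 3 peptides, with the serotonin subunit Htr3b, made a list of 8 genes, of which 6 were tested, 1 was called higher and 0 lower (median log2 fold change 0.039), where 1.49% of all genes tested were called higher. The gene that rose was Cckbr, the main cholecystokinin receptor of the brain. It stood at 26.2, 21.1, 22.2 and 20.3 CPM without the hormone and at 39.3, 41.6, 41.6 and 37.5 CPM after it. Every PTU+TH library lay above every PTU library. The fold was 1.78 (95% interval 1.52 to 2.09; edgeR adjusted p = 0.0011), and the call held in all 18 alternative settings, with an adjusted p of 0.0401 at most. Vipr2, a receptor for VIP and its relative PACAP, stood at 3.63 ± 0.91 CPM without the hormone and 2.05 ± 0.31 CPM after it, with groups that did not overlap and an edgeR adjusted p of 0.130; DESeq2 called it lower. Its body is 47.6% unshared. Vipr1 and Adcyap1r1 were picked after their values were seen. The other VIP receptor, Vipr1, stood at 4.98 ± 2.19 and 5.20 ± 1.46 CPM in PTU and PTU+TH (edgeR adjusted p = 0.978). The PACAP receptor Adcyap1r1 stood at 242 ± 18.8 and 246 ± 8.85 CPM (edgeR adjusted p = 0.967). Tacr3, the receptor for neurokinin B, stood at 1.21 ± 0.38 and 2.37 ± 0.92 CPM (edgeR adjusted p = 0.230). Cckar had at most 0.069 CPM in any library.

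The closest relatives of the markers were a list of 10, of which 7 were tested, 1 was called higher and 1 lower (median log2 fold change -0.083), beside 1.49% and 0.634% of all genes tested. Calb1, which encodes the calcium buffer calbindin and marks other inhibitory neurons, stood at 228, 198, 195 and 173 CPM without the hormone and at 107, 135, 113 and 124 CPM after it. The groups were apart, and the fold was 0.604 (95% interval 0.514 to 0.711; edgeR adjusted p = 0.00328). Adarb1, an adenosine deaminase that edits glutamate receptor transcripts, stood at 138, 138, 168 and 171 CPM without the hormone and at 222, 247, 225 and 264 CPM after it. Here too the groups were apart, and the fold was 1.56 (95% interval 1.33 to 1.83; edgeR adjusted p = 0.00689). The call of each was lost in the 6 libraries with Y-linked counts (log2 fold change -0.71 and edgeR adjusted p = 0.103 for Calb1, 0.61 and 0.116 for Adarb1) and held in the other 17 settings.

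The log2 ratio of a relative to its marker within each library was taken for 6 pairs chosen after their values were seen, so it is given with no test. The ratio of Adarb1 to Adarb2 was -4.18 ± 0.25 in PTU and -3.47 ± 0.19 in PTU+TH. That of Calb1 to Calb2 was 3.08 ± 0.19 and 2.61 ± 0.13. In both pairs the groups were apart. The differences between the groups were 0.51 for Prox2 to Prox1, 0.22 for Adcyap1 to Vip, -0.10 for Npas3 to Npas1 and -0.0078 for Tac1 to Tac2.

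Further genes of the VIP class, a list of 15, had 13 tested members, of which edgeR called 0 (2 higher and 4 lower at an unadjusted p under 0.05, where 12.8% of all genes tested were past it in either direction and 6.17% were lower; median log2 fold change -0.21). Limma voom also called 0, and DESeq2 called Chat and Col15a1 higher and Penk lower. Penk encodes the enkephalin precursor and stood at 68.8, 47.0, 41.9 and 31.2 CPM without the hormone and at 29.1, 27.7, 32.8 and 33.2 CPM after it (edgeR adjusted p = 0.155). PTU mouse 12 lay inside the range of the PTU+TH group and the other 3 PTU mice lay above it. Chat, the enzyme of acetylcholine synthesis in a subset of VIP neurons, stood at 2.15 ± 0.97 CPM without the hormone and 4.20 ± 0.75 CPM after it (edgeR adjusted p = 0.131). Col15a1, a collagen chain, stood at 6.06 ± 1.99 and 10.4 ± 1.19 CPM, with groups that did not overlap (edgeR adjusted p = 0.119). Without PTU mouse 12, edgeR called Chat higher and Penk lower (adjusted p = 0.0305 and 0.0319). Chat, Col15a1 and Penk were also called with the excitatory covariate (edgeR adjusted p = 0.0239, 0.0201 and 0.0106).

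Further genes of the CCK class, a list of 9, had 8 tested members, 1 called higher and 1 lower (median log2 fold change -0.046), against the same 1.49% and 0.634% of all genes tested. Frem1, an extracellular matrix protein, stood at 63.1, 67.9, 63.3 and 91.7 CPM without the hormone and at 42.2, 49.4, 49.97 and 41.9 CPM after it. All PTU+TH libraries lay below the PTU group, at a fold of 0.642 (95% interval 0.532 to 0.775; edgeR adjusted p = 0.0182). It lost the call without PTU+TH mouse 13 or 16 and among the 6 mice with Y-linked counts (edgeR adjusted p = 0.0676, 0.0724 and 0.216), with log2 fold changes of -0.60, -0.60 and -0.64 there against -0.64 in all 8 libraries. Megf10, a cell surface protein with EGF repeats, rose from 6.45 ± 1.86 to 11.8 ± 1.43 CPM (edgeR adjusted p = 0.0486), but lost the call in 10 of 18 settings, with an adjusted p of up to 0.397; its log2 fold change, 0.88, lay between 0.71 and 1.03 over the 18. Sncg, gamma-synuclein, was low at 0.969 ± 0.328 and 0.441 ± 0.223 CPM (edgeR adjusted p = 0.277).

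**Figure D4:**
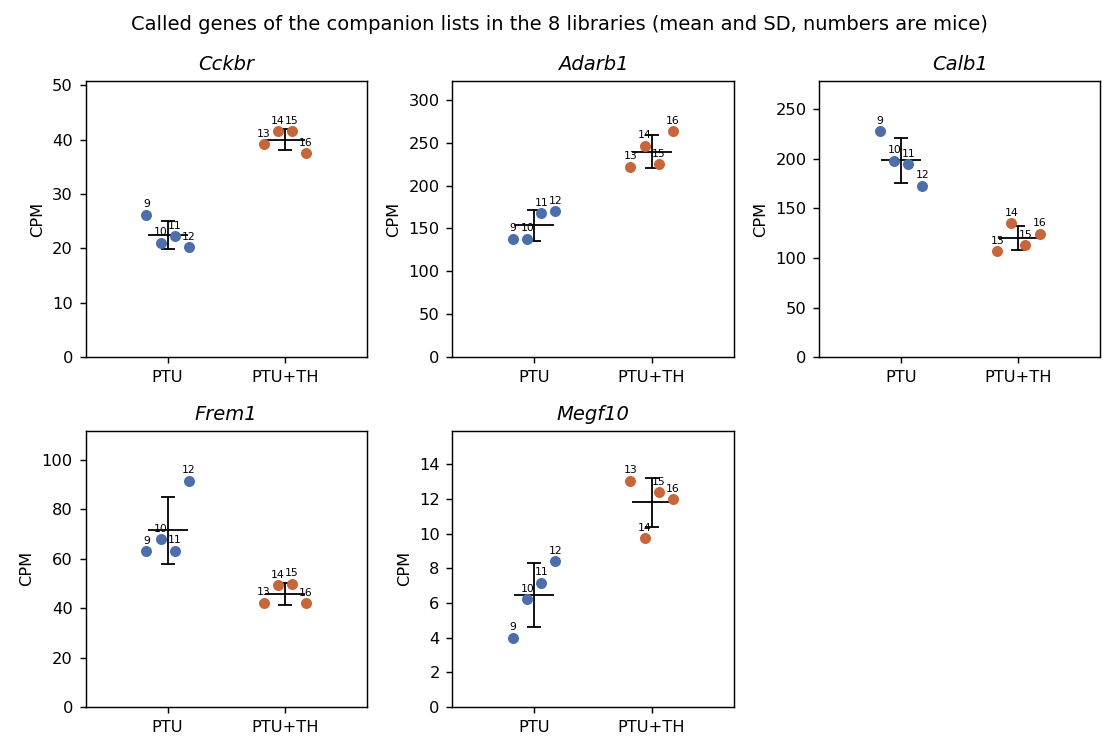
CPM of the 5 called genes of the companion lists in each mouse (points, labelled by mouse number), with the mean and SD of each group (bars, n = 4). Cckbr, Adarb1 and Megf10 are higher in all PTU+TH libraries than in any PTU library, and Calb1 and Frem1 are lower.

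Of 6 further genes of the caudal eminence lineage, all were tested, and edgeR called 0 (0 at an unadjusted p under 0.05), as did DESeq2 and limma voom. Npas3, a bHLH-PAS factor and relative of Npas1, was at 1465 ± 458 CPM without the hormone and 1301 ± 264 CPM after it (edgeR adjusted p = 0.859). Synpr, a synaptic vesicle protein, had a log2 fold change of -0.24, and the chemokine Cxcl14 one of 0.45 (edgeR adjusted p = 0.560 and 0.604). Without PTU mouse 9, Cxcl14 was called higher (0.86, edgeR adjusted p = 0.0150). Npas3 and Synpr were called lower and Cxcl14 higher with the long-gene share, described below, as a covariate (edgeR adjusted p = 0.0183, 0.0414 and 0.0133). Neither Npas3 nor Synpr was called in any fit that left out a library. In those fits the log2 fold change lay between -0.32 and -0.017 for Npas3 and between -0.30 and -0.10 for Synpr. Of 7 genes that process peptide precursors, edgeR called 0, with 1 higher and 1 lower at an unadjusted p under 0.05 (12.8% of all genes tested in either direction), and 6 of the 7 log2 fold changes were above 0 (median 0.17). Scg2, a granin of dense-core vesicles, was at 61.8 ± 22.5 CPM without the hormone and 90.1 ± 13.5 CPM after it (edgeR adjusted p = 0.318). It was called higher without PTU mouse 9 (log2 fold change 0.82, edgeR adjusted p = 0.00619). Pcsk1, the convertase that cuts such precursors, stood at 18.4 ± 3.82 and 12.7 ± 0.71 CPM with groups that did not overlap (edgeR adjusted p = 0.0968); limma voom called 0 of the list, and DESeq2 called Pcsk1 lower, as did edgeR with the excitatory covariate (adjusted p = 0.0214).

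Among 9 partners of CB1, 8 were tested and edgeR, DESeq2 and limma voom each called 0, with 3 higher and 1 lower at an unadjusted p under 0.05 in edgeR, where 12.8% of all genes tested were past it in either direction. Mgll, the lipase that breaks down the endocannabinoid 2-AG, stood at 77.5, 88.7, 99.8 and 94.0 CPM without the hormone and at 102, 108, 130 and 127 CPM after it (fold 1.30, 95% interval 1.11 to 1.52; edgeR adjusted p = 0.105; 0.0167 with the long-gene covariate). The groups did not overlap. The same was true of Abhd12, another hydrolase of 2-AG, at 113 ± 9.19 and 132 ± 5.75 CPM (edgeR adjusted p = 0.286). Abhd6, one more such hydrolase, was at 72.1 ± 6.96 and 89.5 ± 12.5 CPM with overlapping groups (edgeR adjusted p = 0.207). In this list 3 genes had groups apart with PTU+TH higher, where 4.68% of all genes tested did so.

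The markers of the other classes were counted in the same fit. Among PV markers 2 of 8 tested genes were called higher (Syt2 and Nefh), among SST markers 1 of 9 lower (Calb1) and among LAMP5 markers 1 of 9 higher (Gabrd), where 1.49% of all genes tested were called higher and 0.634% lower. The medians were 0.33, -0.26 and -0.051 on the log2 fold change scale. At an unadjusted p under 0.05 in edgeR, 3 PV markers were higher, 3 SST markers lower, and 2 LAMP5 markers higher and 1 lower, where 12.8% of all genes tested were past it and 6.17% were lower. DESeq2 also called the SST marker Cbln4 and the LAMP5 marker Ndnf lower. Of 6 tested genes of the medial eminence lineage, from which PV and SST neurons come, edgeR, DESeq2 and limma voom called 0 (0 at an unadjusted p under 0.05 in edgeR; median 0.067). The 7 tested markers of GABAergic neurons as a whole had 0 calls by these 3 tools, with a median of -0.16. Of these 7, 5 were below 0, where 51.4% of all genes tested were, and 1 was lower at an unadjusted p under 0.05 in edgeR. The difference between classes was not tested. The 8 tested excitatory markers had 0 calls by these 3 tools (0 at an unadjusted p under 0.05 in edgeR; median 0.10), with all 8 log2 fold changes above 0.

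PTU mouse 9 was the highest PTU library for 6 of the 9 markers (Vip, Calb2, Cck, Htr3a, Cnr1 and Tac2). It was the lowest for Adarb2 and Npas1, while mouse 11 was the lowest for 5. The same counts over all genes tested were not made. By the check for a lone library, described below, mouse 9 was picked out for Htr3a alone. The share of counts that fell in genes with a body over 100 kb was 37.4% in mouse 9, 40.5% in mouse 10, 48.9% in mouse 11 and 46.6% in mouse 12, and 42.3% to 48.5% in the PTU+TH group. Within the PTU group Adarb2 was low in mice 9 and 10 and high in mice 11 and 12, and Cnr1, Cck and Tac2, which have bodies of 24.2, 5.87 and 7.29 kb, were highest in mouse 9 and lowest in mouse 11. Npas1, with a body of 22008 bases, was lowest in mouse 9, and Prox1, with 52680 bases, was lowest in mouse 11. The part of gene length in the values of mouse 9 was not tested. With the share as a covariate, a setting added after the data were seen, Htr3a was still called (log2 fold change -1.01, edgeR adjusted p = 0.0149) and the other 8 markers were not. At an unadjusted p under 0.05 in that fit 4 were lower, Vip, Htr3a, Prox1 and Adarb2, the last with a log2 fold change of -0.17 (edgeR adjusted p = 0.128); 9.06% of all genes tested were lower at that p in the same fit.

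**Figure D5:**
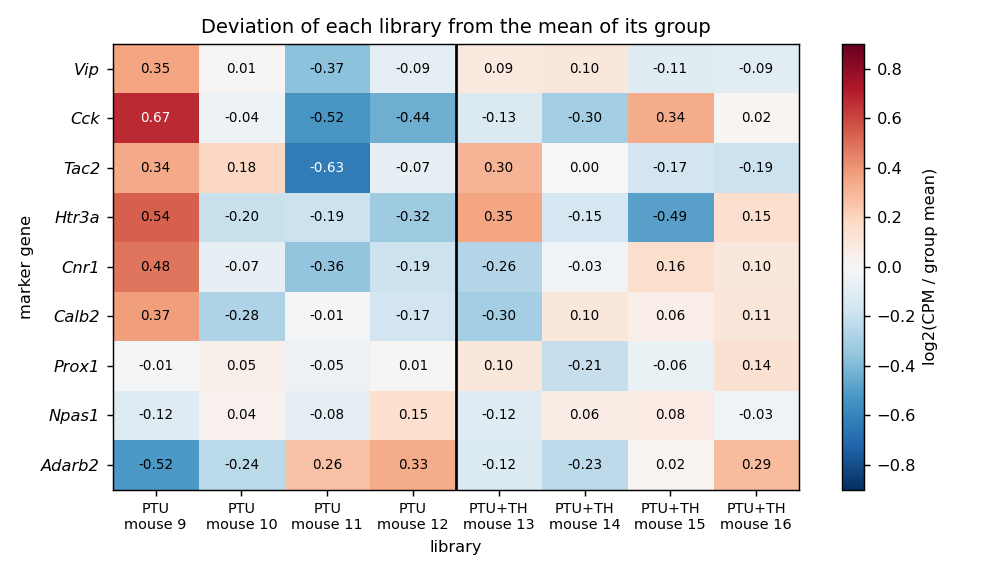
Log2 ratio of each library's CPM to the mean of its own group, for the 9 marker genes (rows) in the 8 libraries (columns, PTU left and PTU+TH right of the line). PTU mouse 9 is high for Cck, at 0.67, and low for Adarb2, at -0.52.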

How the data were processed

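Nuclear RNA of 8 libraries was analysed, 4 PTU and 4 PTU+TH, grouped by the sample titles. The deposited values are raw counts per gene symbol, 1 file per library. Reads were mapped with Bowtie2 2.5.3 to mm10 (GRCm38), per the submitters' processing notes; the counting program, the annotation and the use of strand are not given in the sources used here. The symbols matched all 55341 of GENCODE M21, from which positions, lengths and shared bases were taken. Without known strand, overlapping and antisense genes are uncertain. No row lacked a gene name.

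In R 4.3.3, edgeR 4.0.16 kept genes with filterByExpr (17355), scaled libraries by TMM and applied the robust quasi-likelihood test with no covariate. Two-sided p-values were adjusted (Benjamini-Hochberg) across the tested genes; called means an adjusted p under 0.05. CPM are computed here from the deposited counts after TMM. Intervals of folds come from the same fit at 95%. No 2 libraries of a group agreed within sampling noise (chi-square per degree of freedom 8.87 to 79.8). The test was checked on simulated data.

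Alternatives were RLE, upper quartile and total-count scaling, DESeq2 1.42.0, limma 3.58.1 (voom), no filter, thinning, an excitatory covariate, the libraries with Y-linked counts, leaving out each library, and a long-gene covariate added later. The members and lists were chosen with earlier results of these data known. Named were all members, the called and up to 3 lowest-p genes of each companion list, the closest relatives, and the first gene of some marker lists.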

Additional observations from a re-analysis of the deposited data

Results flagged for a closer look

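A check for a lone library among 4 was run on 70 groups of values; 3 were picked out, and chance alone would pick about 5%, or 3.5. For Htr3a, PTU mouse 9 had 11.4 CPM while its group otherwise spanned 6.25 to 6.83 CPM, a gap of 0.888 of the range. For Calb2, PTU+TH mouse 13 had 15.9 CPM and the remaining mice 20.4 to 21.1 CPM (0.869). For Frem1, PTU mouse 12 had 91.7 CPM and the remaining mice 63.1 to 67.9 CPM (0.830).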

How the results depend on the processing

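No paired analysis was possible because no number is shared by mice of both groups. Of 612 log2 fold changes computed for the 34 named genes over 18 settings, 594 kept their direction. Against 368 genes called (258 higher, 110 lower), DESeq2 called 748 (456 and 292), the excitatory covariate gave 564 (387 and 177), the long-gene covariate 969 (565 and 404) and the 6 libraries with Y-linked counts 58 (52 and 6); leaving out a library gave 182 to 499. The 6 libraries hold fewer mice; otherwise the cause was not tested.

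Against 1 marker called, library totals gave 0 (2 at an unadjusted p under 0.05 in edgeR), the Y-linked libraries 0 (3 unadjusted), the excitatory covariate 2 (Cck and Htr3a), and leaving out a library 0 to 1. Against 2 markers with groups apart, where 8.71% of all genes tested were, library totals gave 1 (8.00% of all genes), the Y-linked libraries 3 (Cck, Htr3a and Prox1; 18.8%) and leaving out a library 2 to 3 (10.9% to 15.4%), the 3 without PTU mouse 11 (Vip, Htr3a and Prox1; 12.3%). The difference in the summed CPM, -254 (PTU+TH minus PTU), was -474 without PTU mouse 9, -16.8 without PTU mouse 12, -582 in the Y-linked libraries and -67.8 without Adarb2. The difference in library totals ranged from -1.57 to 0.875 M counts over the fits that left out a library.

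Log2 fold changes near 0 changed sign. Adarb2 was 0.012 with the excitatory covariate, Tac2 was 0.074 in the Y-linked libraries, and with the long-gene covariate Cnr1, Tac2 and Adcyap1 were 0.047, 0.035 and 0.070. Leaving out a library gave -0.23 to 0.033 for Adarb2, -0.067 to 0.018 for Npas1, -0.14 to 0.17 for Cnr1, -0.25 to 0.052 for Tac2, -0.18 to 0.027 for Tac1 and -0.43 to 0.21 for Adcyap1. Htr3a ranged from -1.24 to -0.86 over these fits, with edgeR adjusted p-values of 0.0417 to 0.116, and its adjusted p was 0.067 with library totals and 0.334 in the Y-linked libraries. Htr3a had 57 to 312 counts per library, the fewest of the tested markers. The part of counting error in these results was not tested.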

Other observations

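The spread between mice was uneven across the markers. The coefficient of variation (SD as a percentage of the mean) was larger in PTU than in PTU+TH for 8 of the 9 markers, as for 62.1% of all genes tested. Without PTU mouse 9, it was larger in PTU for 4 of the 9 markers, as for 51.9% of all genes tested. In PTU, Cck varied by 41.5% and Cnr1 by 27.1%, and without mouse 9 by 18.5% and 9.85%. The 200 genes nearest to each in mean CPM had medians of 12.0% and 11.8%, and without mouse 9 of 9.84% and 8.09%. Vip went from 20.9% to 13.2%, and Htr3a from 30.5% to 4.93%. Tac2 varied by 27.0% with mouse 9 and by 27.2% without it. Prox1 varied by 2.85% in PTU, 3.41% without mouse 9, and by 10.9% in PTU+TH.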
